A study of Mus musculus and Homo sapiens with 10 samples.

Results

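VCX3A, VCX, VCX2 and VCX3B are the 4 VCX (variable charge, X-linked) genes of the human X chromosome, and they are described here in human embryonic stem cells with and without knockdown of the DNA methyltransferases (DNMTs). They were chosen by name from the deposited table of 22060 human genes, with one row of the table for each gene, and because earlier results of the same 2 libraries had shown them high after the knockdown. Their difference between the libraries is therefore a description and not a test. The series combines ChIP-seq with RNA-seq in mouse and human embryonic stem cells and asks how L1 retrotransposons are silenced there. Only the human RNA-seq bears on the VCX genes. The sh-DNMTs group was the H1 line, transduced with lentivirus carrying hairpins against the DNMTs and taken at passage 69. The sh-empty group was the same line at the same passage, transduced with a lentivirus that carried the empty hairpin vector. Each group had 1 library from 1 cell line, so no value has a replicate error. The labels used here state neither the time between transduction and harvest nor the hairpins. In bulk RNA, a difference in the number of cells that express a gene cannot be told apart from a difference in RNA per cell.

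The VCX genes lie on the distal short arm of the X chromosome, scattered among unrelated genes, and are known from primates. Their RNA is normally found in male germ cells, and they encode small charged proteins with a short acidic repeat at the end, whose copy number differs between the genes. VCX3A is also known to bind DCP2, the enzyme that removes the cap of mRNA. Many genes of this expression type, called cancer-testis genes, carry methylated promoters in other cells, and DNMT1 copies that methylation at each cell division while DNMT3A and DNMT3B set it. The near-identical copies on the Y chromosome, VCY and VCY1B, were not analysed here and are left out of all ranks below. No human genome or sequence table was used, so coordinates and sequences of the genes are not given. The order of the genes along the arm, as used below, is background knowledge and was not taken from these data.

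The sh-DNMTs library held 92478094 reads and the sh-empty library 100921087 reads, worked out from the deposited RPKM values (reads per kilobase of the entry, scaled to the library total). DNMT1 stood at 6.95 RPKM in sh-DNMTs cells and 24.5 RPKM in sh-empty cells, DNMT3B at 75.9 against 181 RPKM, and DNMT3A at 12.2 against 17.9 RPKM. These DNMTs were thus at 28.4%, 41.9% and 67.9% of their sh-empty level, while the labels used here do not say which of them the hairpins target. DNMT3L, the cofactor without enzyme activity, was at 0.0445 against 0.0582 RPKM. Of the enzymes that oxidise methylcytosine, TET1 was at 10.2 against 8.32 RPKM, TET2 at 0.287 against 0.539 RPKM and TET3 at 3.26 against 2.58 RPKM. UHRF1, which guides DNMT1 and was also on this list, was not analysed here.

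All 4 VCX genes were close to silent in sh-empty cells and were among the well-expressed genes of sh-DNMTs cells. VCX3A, the copy known for binding DCP2, had 68.8 RPKM in sh-DNMTs cells and 0.563 RPKM in sh-empty cells. VCX had 57.9 RPKM in sh-DNMTs cells and 0.518 RPKM in sh-empty cells. VCX2 had 49.7 RPKM in sh-DNMTs cells and 0.291 RPKM in sh-empty cells. The sh-DNMTs value was far above the sh-empty value for each of these copies. VCX3B, the lowest of the family after knockdown, had 38.2 RPKM in sh-DNMTs cells and 0.419 RPKM in sh-empty cells. The highest sh-empty value of any copy was thus 0.563 RPKM and the lowest sh-DNMTs value 38.2 RPKM. Of all genes in the table, between 94.6% (VCX3B) and 97.2% (VCX3A) had a lower RPKM than the VCX gene in sh-DNMTs cells, against between 37.8% (VCX2) and 42.6% (VCX3A) in sh-empty cells.

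**Figure D1:**
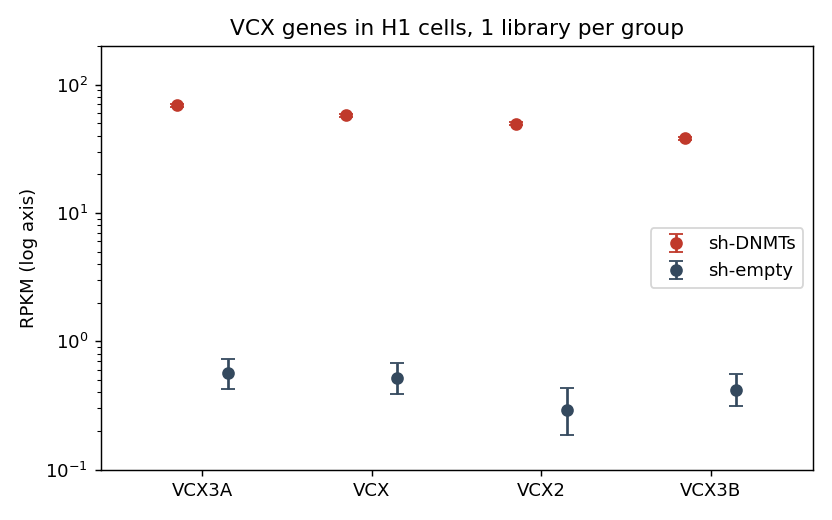
RPKM of the 4 VCX genes (log axis) in the sh-DNMTs library and the sh-empty library; points are single libraries and bars are 95% Poisson intervals of the reads. The sh-DNMTs points lie between 38.2 and 68.8 RPKM and the sh-empty points between 0.291 and 0.563 RPKM.

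Behind these levels stood at least 3755 reads for each gene in sh-DNMTs cells and at most 57 in sh-empty cells. VCX3A had 6392 reads (95% Poisson interval 6236 to 6551) in sh-DNMTs cells and 57 reads (43.2 to 73.9) in sh-empty cells. Its RPKM was 122 times as high in sh-DNMTs cells, with a 95% counting interval of 94.3 to 162. VCX had 5223 reads in sh-DNMTs cells and 51 in sh-empty cells, a ratio of 112 (84.9 to 150.3). This ratio lay within the interval of VCX3A. VCX2 had 3755 reads in sh-DNMTs cells and 24 in sh-empty cells, a ratio of 171 (115 to 267). VCX3B had 4179 reads in sh-DNMTs cells and 50 in sh-empty cells, a ratio of 91.2 (69.1 to 123). The intervals of these ratios overlapped for every pair of the 4 genes, which does not show that the ratios are equal. The entry lengths behind the reads were the smallest whole lengths that gave whole reads in both libraries, and ranged from 817 (VCX2) to 1183 bases (VCX3B). The intervals are from the exact conditional binomial distribution. They cover counting error only, because the reads carry no molecular identifiers and there was no second library to show the spread between cultures.

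The order of the copies was VCX3A, VCX, VCX2 and VCX3B in sh-DNMTs cells, where the Poisson intervals of RPKM did not overlap for any pair. In sh-empty cells the order was VCX3A, VCX, VCX3B and VCX2, and there the intervals overlapped for every pair. For VCX3A (0.426 to 0.729 RPKM) and VCX2 (0.186 to 0.433 RPKM) they overlapped only at their edges. The copies were not compared directly, so overlap alone does not settle that order. The highest copy was 1.80 times the lowest in sh-DNMTs cells and 1.93 times the lowest in sh-empty cells. Together the 4 genes had 214.6 RPKM and 19549 reads in sh-DNMTs cells, against 1.79 RPKM and 182 reads in sh-empty cells. Scaled to the library totals, the summed reads were 117 times as high in sh-DNMTs cells (95% counting interval 101 to 136). The summed RPKM differed 119.9-fold. A read that matches several copies may have been counted at each of them, at one of them or at none, and the labels used here do not say which. The split over the copies is uncertain for that reason, and the sum may hold some reads more than once. Reads from the near-identical VCY and VCY1B may also be among those counted at the VCX genes, which was not examined.

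VCX3A and VCX took similar shares of the family's reads in both libraries, while the shares of VCX2 and VCX3B differed more. VCX3A took 32.7% of the family's reads in sh-DNMTs cells (95% Clopper-Pearson interval 32.04 to 33.4%) and 31.3% in sh-empty cells (24.7 to 38.6%). VCX took 26.7% in sh-DNMTs cells (26.1 to 27.3%) and 28.0% in sh-empty cells (21.6 to 35.1%). Neither share differed beyond its counting interval. VCX2 took 19.2% in sh-DNMTs cells (18.7 to 19.8%) and 13.2% in sh-empty cells (8.64 to 19.0%). VCX3B took 21.4% in sh-DNMTs cells (20.8 to 22.0%) and 27.5% in sh-empty cells (21.1 to 34.6%). For VCX2 the intervals overlapped only at their edges, and the sh-DNMTs share lay above the sh-empty interval. For VCX3B the sh-DNMTs share lay within the sh-empty interval.

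**Figure D2:**
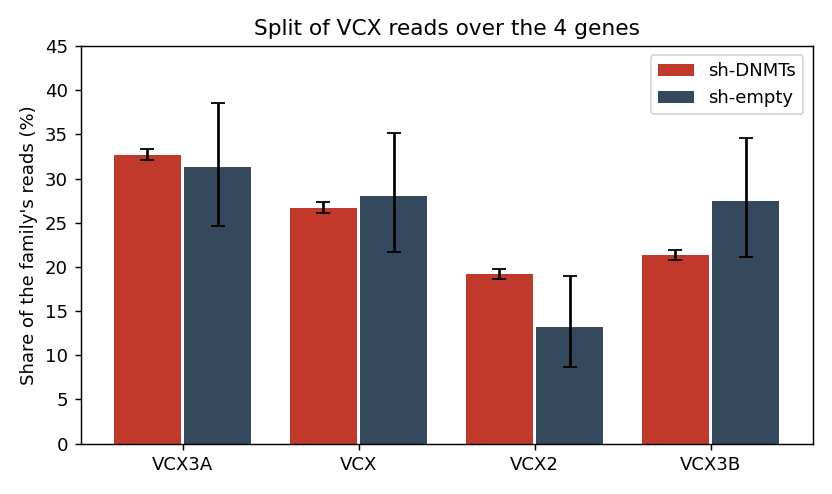
Share of the family's reads (%) taken by each VCX gene in the sh-DNMTs library and the sh-empty library, with 95% Clopper-Pearson intervals as bars. VCX3A took the largest share in both, at 32.7% in sh-DNMTs cells and 31.3% in sh-empty cells, and the sh-empty intervals are wide because they rest on 182 reads.

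Differences across genes were taken as the log2 difference of RPKM + 0.5, sh-DNMTs minus sh-empty, for the 13043 genes whose mean RPKM over both libraries reached 0.5, and a difference of at least 1 was called 2-fold. On this scale VCX3A differed by 6.03, VCX2 by 5.99, VCX by 5.84 and VCX3B by 5.40, so 4 of 4 members were past 2-fold upward. In all, 570 genes (4.37%) were past 2-fold upward and 648 (4.97%) downward, and the median difference was 0.01. VCX2 and VCX3B, below 0.5 RPKM in sh-empty cells, passed the filter only through their sh-DNMTs value. Among 13041 genes the VCX genes held ranks 1 (VCX3A), 2 (VCX2), 3 (VCX) and 5 (VCX3B) by this difference. The ranks depend on the pseudocount, since VCX genes are not at 0 in sh-empty cells. With 0.1 in place of 0.5, VCX2 was at rank 3, VCX3A at rank 9, VCX at rank 11 and VCX3B at rank 20.

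The genes lying between the VCX copies were not past 2-fold. Of 12 neighbouring genes of the X short arm in the table, 8 passed the filter, 1 was past 2-fold upward (FAM9C) and 0 downward. Over all genes past the filter, 4.37% were past 2-fold upward and 4.97% downward. A count near 0 among so few genes is thus near the background, also for the genes between the copies. The median over all 12 was 0.20, against 0.00 over all genes of the table. HDHD1, a pseudouridine phosphatase gene between VCX3A and VCX, had 7.28 RPKM in sh-DNMTs cells and 8.12 RPKM in sh-empty cells. STS, the steroid sulfatase gene next to it, had 0.309 RPKM in sh-DNMTs cells and 0.169 RPKM in sh-empty cells, a ratio of 1.82 (95% counting interval 1.43 to 2.33). Recombination between VCX-bearing repeats is a known cause of STS deletions. PNPLA4, a lipase gene on the other side of VCX, had 2.14 RPKM in sh-DNMTs cells and 3.40 RPKM in sh-empty cells. These genes lie inside the stretch bounded by the VCX copies and none of them was past 2-fold on the log2(RPKM + 0.5) scale. MIR651, a microRNA entry of the same neighbour list, was listed at 0 in both libraries, which were selected for poly(A) RNA.

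Outside that stretch, KAL1, which encodes anosmin, had 13.1 RPKM in sh-DNMTs cells and 9.45 RPKM in sh-empty cells. NLGN4X, a synaptic adhesion gene beyond VCX3A, had 11.8 RPKM in sh-DNMTs cells and 19.6 RPKM in sh-empty cells. TBL1X, a corepressor subunit, had 4.84 RPKM in sh-DNMTs cells and 7.41 RPKM in sh-empty cells. None of these was past 2-fold. GPR143, a melanosome receptor, had 8.03 RPKM in sh-DNMTs cells and 4.97 RPKM in sh-empty cells. SHROOM2, an actin-binding protein, had 1.99 RPKM in sh-DNMTs cells and 1.78 RPKM in sh-empty cells.

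The FAM9 genes, a testis family related to the synaptonemal complex gene SYCP3, stood apart from the other neighbours. FAM9C, which lies farther along the arm, had 2.90 RPKM and 337 reads in sh-DNMTs cells, against 0.0395 RPKM and 5 reads in sh-empty cells, a ratio of 73.6 (95% counting interval 31.2 to 228). FAM9A had 0.413 RPKM and 58 reads in sh-DNMTs cells and 0 reads in sh-empty cells. FAM9B had 0.589 RPKM and 29 reads in sh-DNMTs cells and 0 reads in sh-empty cells. Set against a limit of 3 reads in the sh-empty library and with the lower 95% Poisson limits of 44.0 and 19.4 reads in the sh-DNMTs library, FAM9A was at least 16.0-fold higher and FAM9B at least 7.06-fold higher in sh-DNMTs cells. All 3 had a lower RPKM than any VCX gene in both libraries.

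**Figure D3:**
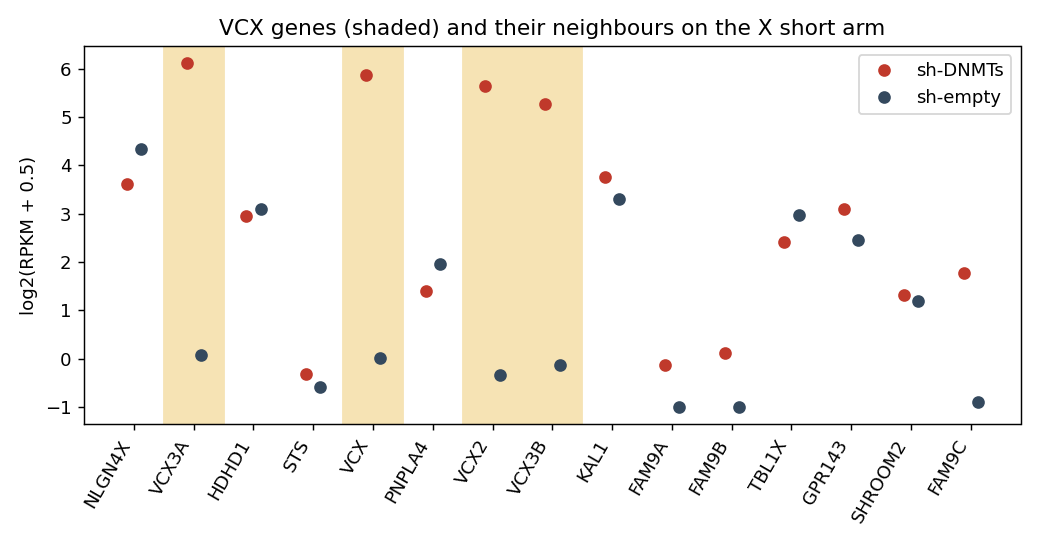
log2(RPKM + 0.5) of the VCX genes (shaded) and 11 neighbouring genes, with the sh-DNMTs library left of the sh-empty library for each gene. Genes are in their known order along the X short arm, spacing is not to scale and points are single libraries. The VCX pairs are 5.40 to 6.03 apart, while HDHD1, STS and PNPLA4 between them are less than 1 apart.

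The genes with the pattern most like the VCX genes were searched for by their distance to the family's mean position, with log2(RPKM + 0.5) in the 2 libraries as axes. The members themselves lay 0.18 (VCX) to 0.45 (VCX3B) from that position. DPPA5, an RNA-binding protein gene of pluripotent cells, lay closest at 0.16, with 52.7 RPKM in sh-DNMTs cells and 0.555 RPKM in sh-empty cells. Of 22058 genes, DPPA5 was also the only other one at or below the highest VCX value in sh-empty cells and at or above the lowest VCX value in sh-DNMTs cells, a limit set after the values were seen. MAGEA6 followed at 0.85, with 29.0 RPKM in sh-DNMTs cells and 0.431 RPKM in sh-empty cells, and then MAGEA3 at 0.92, with 27.5 RPKM in sh-DNMTs cells and 0.407 RPKM in sh-empty cells. Both are cancer-testis genes of the long arm of the X chromosome. GTSF1, a factor of the piRNA pathway, lay at 1.04, with 25.4 RPKM in sh-DNMTs cells and 0.518 RPKM in sh-empty cells. The rest of the 8 nearest genes lay between 1.43 and 1.60 away. They were PNMA5, of a paraneoplastic antigen family, the cancer-testis gene MAGEB2, the testis tubulin gene TUBA3D and the homeobox gene RHOXF2B of reproductive tissue. Their levels ranged from 17.8 (TUBA3D) to 20.2 RPKM (MAGEB2) in sh-DNMTs cells and from 0.0791 (MAGEB2) to 0.343 RPKM (TUBA3D) in sh-empty cells. With only 2 libraries, this likeness rests on 2 values for each gene.

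**Figure D4:**
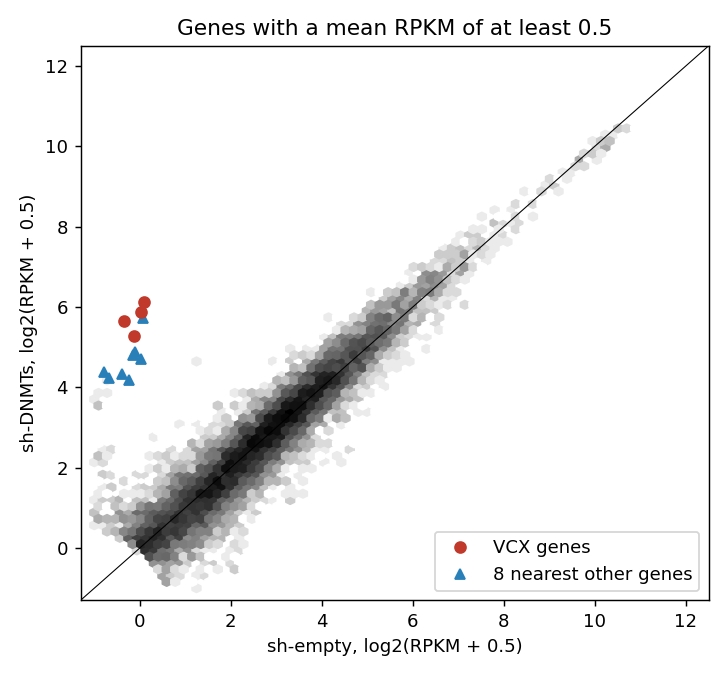
log2(RPKM + 0.5) in the sh-DNMTs library (vertical) against the sh-empty library (horizontal) for genes whose mean RPKM reached 0.5; grey shade is the number of genes on a log scale, and the line marks equal values. The VCX genes and the 8 nearest other genes lie well above the line at low sh-empty values, and DPPA5 is the triangle among the VCX points.

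The VCX genes were set beside the other X-linked cancer-testis families, which are also expressed mainly in testis. Of 94 such genes in the table, 45 were past 2-fold upward and 0 downward with no filter on low values, against 2.78% of all genes upward, and their median difference was 0.69, against 0.00 over all genes. The 40 that passed the filter were all past 2-fold upward, but 36 of them were below 0.5 RPKM in sh-empty cells and could pass only through their sh-DNMTs value. Some symbols share one entry, so the 94 genes stand for 86 distinct entries, the 45 for 38 and the 40 for 33. By difference the leading genes were MAGEB2 (5.16), GAGE2E (5.08), GAGE13 (5.05) and MAGEA6 (4.98), all below the lowest VCX gene. GAGE2E, of a family of near-identical copies, had 16.4 RPKM in sh-DNMTs cells and was listed at 0 in sh-empty cells, and GAGE13 had 16.7 RPKM in sh-DNMTs cells against 0.0188 RPKM in sh-empty cells. MAGEA4 had the highest level of these families, at 88.8 RPKM in sh-DNMTs cells against 7.29 RPKM in sh-empty cells, so it exceeded every VCX gene in level in both libraries. The lead of the VCX genes holds for the difference of RPKM + 0.5 and not for the plain ratio. Genes listed at 0 in sh-empty cells, such as GAGE2E, have no plain ratio and are not in the following count. By that ratio 14 of these genes (13 distinct entries) were above VCX2, from 174-fold (CTAG1A and CTAG1B) to 888-fold (GAGE13). Among them were 8 GAGE genes, MAGEA1, MAGEA11, MAGEB2 and CTAG2. Each of the 14 had a lower RPKM than any VCX gene in both libraries, at most 20.2 RPKM in sh-DNMTs cells and 0.0791 RPKM in sh-empty cells. At such low sh-empty values the ratios are uncertain, and no counting intervals were worked out for these genes. The ratios of CTAG1A, CTAG1B, CTAG2, GAGE1, MAGEA1, MAGEA11 and MAGEB2 lay within the counting interval of VCX2 (115 to 267).

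A list of 25 germ cell genes outside these families was drawn up as methylation-sensitive. It does not stand for germ cell genes in general. Of the 25, 9 were past 2-fold upward and 0 downward with no filter, against 2.78% of all genes upward. The median difference was 0.69, against 0.00 over all genes. DAZL, an RNA-binding protein gene of germ cells, had 91.2 RPKM in sh-DNMTs cells and 2.90 RPKM in sh-empty cells, a difference of 4.75. MAEL, a piRNA pathway gene, differed by 4.25, with 11.4 RPKM in sh-DNMTs cells and 0.126 RPKM in sh-empty cells. SYCP3, a component of the synaptonemal complex, differed by 2.99 and the Tudor protein gene TDRD1 by 2.10. DDX4, the germ cell helicase gene that marks germ cells in many species, stood at 0.763 RPKM in sh-DNMTs cells and 0.0321 RPKM in sh-empty cells. TEX14 was lower in sh-DNMTs cells, at 0.186 RPKM and 83 reads against 0.383 RPKM and 186 reads in sh-empty cells. Its plain ratio was 0.487 (counting interval 0.371 to 0.634) and its difference -0.36. The count of 0 downward thus does not hold for the plain ratio. TDRKH (6.74 against 7.27 RPKM) and TEX101 (3 against 5 reads) were also lower, with counting intervals that included equal levels. DAZL alone of this list was above the VCX genes in sh-DNMTs cells.

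Because VCX3A is known to bind DCP2, the mRNA decapping factors were examined as well. None of the 8 was past 2-fold in either direction, and their median difference was -0.28, against 0.01 over all genes past the filter. With 4.37% of all genes past 2-fold upward and 4.97% downward, a count of 0 in 8 is near the background. DCP2 itself had 9.29 RPKM in sh-DNMTs cells and 13.2 RPKM in sh-empty cells, a difference of -0.48. The other factors with the largest differences were EDC3 (-0.54), an enhancer of decapping, DCP1A (-0.54), the partner of DCP2, and the exonuclease XRN1 (-0.51). In sh-DNMTs cells the RPKM of VCX3A was thus above that of DCP2, and in sh-empty cells it was below.

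**Figure D5:**
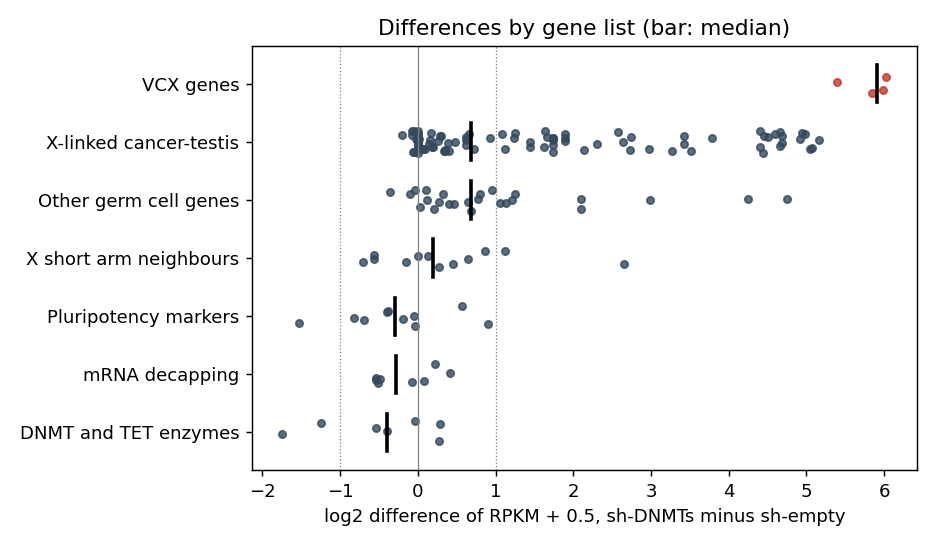
log2 difference of RPKM + 0.5, sh-DNMTs minus sh-empty, for all genes in the table of each list, with the median as a black bar and dotted lines at a 2-fold difference; vertical scatter within a list has no meaning. The 4 VCX genes lie between 5.40 and 6.03, to the right of every other gene shown, while decapping factors lie within the dotted lines.

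The cell type label was checked with marker genes. All 10 pluripotency markers were detected in both libraries, with a summed level of 1646 RPKM in sh-DNMTs cells and 2065 RPKM in sh-empty cells. POU5F1 had 893 RPKM in sh-DNMTs cells and 921 RPKM in sh-empty cells, while TDGF1, a NODAL coreceptor gene, had 144 against 418 RPKM and was the 1 marker of the 10 past 2-fold. The next largest differences went in both directions. NANOG had 32.6 RPKM in sh-DNMTs cells against 17.3 RPKM in sh-empty cells, while PRDM14 had 12.3 against 22.1 RPKM and SOX2 66.4 against 107 RPKM. The 7 fibroblast markers summed to 154 RPKM in sh-DNMTs cells and 94.9 RPKM in sh-empty cells, nearly all from THY1 (109 against 35.2 RPKM), which stem cells also express, COL1A1 (18.2 against 22.8 RPKM) and COL1A2 (26.1 against 36.7 RPKM). DCN and LUM were listed at 0 in sh-empty cells and had at least 1 read each in sh-DNMTs cells. COL3A1 had 47 reads in sh-DNMTs cells against 4 in sh-empty cells, a ratio of 12.8 (95% counting interval 4.69 to 49.0), and POSTN had 47 against 19 reads, a ratio of 2.70 (1.55 to 4.87). The reads of the markers rest on the smallest entry length that gives whole reads. They can be understated, which would make the intervals too wide. The 7 mesendoderm markers summed to 1.53 RPKM in sh-DNMTs cells and 0.294 RPKM in sh-empty cells, with FOXA2 at 1.24 against 0.00816 RPKM. The 6 trophoblast markers summed to 2.97 against 11.4 RPKM, nearly all from KRT7, with CGA and HAND1 at 0 in both libraries. The 5 neuroectoderm markers summed to 61.6 RPKM in sh-DNMTs cells and 54.6 RPKM in sh-empty cells, and their members differed in direction. NES had 50.03 against 33.1 RPKM and ZIC1 57 against 5 reads, while OTX2 had 11.3 against 21.2 RPKM, SOX1 0.0711 against 0.181 RPKM and PAX6 0.0895 against 0.107 RPKM. The part of any of these marker differences in the VCX values was not tested.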

How the data were processed

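Cytoplasmic RNA was selected for poly(A) and sequenced, per the labels' protocols. The authors deposited RPKM values for 34596 RefSeq entries with gene symbols and for 9840 single L1 copies, 1 column for each human library. Bowtie 0.12.5 and the build hg19 are named in the submitters' processing notes. For the annotation release, the strand and the placement of reads with several positions, nothing is given in the sources used here.

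Groups were taken from the sample titles. Each gene was represented by its entry with the highest mean RPKM. A single total for each library turned the RPKM of 100% of the L1 copies into whole reads within 0.01 reads. The length of an entry was then taken as the smallest one giving whole reads in each library, within 0.0005 reads, which can understate its reads. Poisson, Clopper-Pearson and conditional binomial intervals at 95% were computed with scipy 1.17.1, numpy 2.4.6 and pandas 2.3.3 in Python 3.11.15. The steps were checked on data drawn with known answers. For entry lengths, that check accepted any length that divides the true one, so it cannot show whether reads were understated. With 1 library per group no test of the knockdown was made.

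The members and gene lists were chosen with earlier results of these data known. CTAGE genes and SSX2IP, which share only a prefix with cancer-testis families, were removed from that list after its values were seen. Named in the text are the 4 VCX genes, all neighbours and methylation enzymes in the table, and the 8 nearest genes. Of each other list, up to 4 genes past the filter with the largest differences are named. Other genes, among them MAGEA4, DDX4, TEX14, TDRKH, TEX101, POU5F1, DCN, LUM, COL3A1, POSTN, SOX1, PAX6, ZIC1, CGA and HAND1, were named after their values were seen. Alternatives covered the pseudocount, the filter, the entry used and the scaling. A planned description of promoters and proteins was not run, since no human sequences were used.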

Additional observations from a re-analysis of the deposited data

How the results depend on the processing

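The size of the 4 VCX differences and of the summed difference depended on the pseudocount by more than the counting interval. The settings tried could not turn their direction, since a pseudocount keeps the sign, each VCX gene has 1 entry and the median shift over all genes was 0.012. The log2 differences with a pseudocount of 0.1 were 6.70 (VCX3A), 6.55 (VCX), 6.99 (VCX2) and 6.21 (VCX3B). With a pseudocount of 1 they were 5.48 (VCX3A), 5.28 (VCX), 5.30 (VCX2) and 4.79 (VCX3B). With no pseudocount, a setting chosen after seeing the data, they were 6.94 (VCX3A), 6.80 (VCX), 7.42 (VCX2) and 6.51 (VCX3B). The difference of the summed RPKM was 6.55, against 6.83, 6.27 and 6.91 under these settings. A larger pseudocount lowers each difference by construction. The number of neighbouring genes past 2-fold upward was 1, and 2 with no filter on low values, which adds FAM9B. No paired analysis was possible because each human group has 1 library, and for the same reason no library could be left out. The sh-empty values rest on 24 to 57 reads per gene, which limits every ratio.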

Other observations

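Among the X-linked cancer-testis families, the SPANX, CT45A, CT47A and MAGEC genes had no member with a mean RPKM of at least 0.5, while 11 of 12 MAGEA and 11 of 16 GAGE genes reached it. The highest of 3 MAGEC genes stood at 0.324 RPKM in sh-DNMTs cells (MAGEC1), and all 3 were listed at 0 in sh-empty cells. The highest of 12 SPANX genes, sperm proteins of the nucleus, stood at 0.178 RPKM in sh-DNMTs cells (SPANXC) and the highest in sh-empty cells at 0.280 RPKM. The highest of 6 CT45A genes stood at 0.193 RPKM in sh-DNMTs cells (CT45A3) and the highest in sh-empty cells at 0.0148 RPKM. All 11 CT47A genes, which are near-identical copies like the VCX genes, were listed at 0 in both libraries. The labels used here do not say whether reads of such copies were kept in the counting.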
